A study of Rattus norvegicus with 12 samples.

Results

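Kidneys of the PCK rat, which develops cystic kidney disease, were compared with kidneys of the SD (Sprague Dawley) stock from which PCK was derived. The samples were chosen by their array titles and strain labels: 3 PCK arrays and 3 SD arrays, 6 of the 12 arrays in the series. The other 6 arrays measured FHH, the Fawn Hooded Hypertensive strain, and FHH.Pkhd1, a congenic of FHH with a PCK segment of chromosome 9. They share the estimate of array spread here and appear again only where PCK and SD are placed among the 4 pools. PCK and FHH.Pkhd1 carry a mutation of Pkhd1, and SD and FHH do not. PCK and SD may differ at other loci too, which cannot be told apart from the mutation in this comparison. Animals of both groups were 30 days old and ate the 5LOD diet, and their sex is not given in the labels. The RNA of a strain, taken from both kidneys of 6 animals, went into 1 pool, and each pool was hybridized to 3 arrays. The 3 arrays of a strain are therefore technical replicates, and every standard error (SE) and p-value below sets pool against pool over the spread between arrays, with no information on the spread between animals.

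Pkhd1 encodes fibrocystin, a membrane protein of the primary cilium and of the tubule and bile duct epithelium, and its loss causes autosomal recessive polycystic kidney disease. In that disease the collecting ducts and other tubules dilate into cysts, and signalling through vasopressin and cyclic AMP and through the EGF receptor is known to drive the growth of cyst epithelium. Dilated and injured tubules elsewhere are known to make kidney injury molecule 1, clusterin and osteopontin, while proximal tubule cells normally carry out most of the kidney's transport, fat oxidation and conjugation of drugs.

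Signals are given as log2 values. Array medians ran from 6.41 to 6.46. Arrays of the same pool correlated at 0.9975 to 0.9985 over probe sets, and PCK with SD arrays at 0.9915 to 0.9931. No array stood apart, and the number of arrays limits the precision. A gene was tested where the mean of at least 1 strain reached 5.75. This limit, the 40th percentile of the deposited values, is called the detection level here although it is not a measured background. Kidney markers were high in both pools: the phosphate transporter Slc34a1 was at 13.50, 13.48 and 13.48 in PCK and 13.57, 13.50 and 13.53 in SD, and uromodulin, Umod, at 13.42, 13.39 and 13.41 in PCK and 13.42, 13.43 and 13.39 in SD. Both genes overlapped between the pools. Some control probe sets differed. Poly-A spike-ins averaged 10.81 ± 0.07 in PCK and 10.47 ± 0.08 in SD (standard deviation of 3 arrays, exact two-sided permutation p = 0.1, which is the smallest for 3 arrays against 3). The 3′ minus 5′ signal of beta-actin was 1.33 in PCK and 1.10 in SD, and that of Gapdh 0.14 and -0.03 (exact permutation p = 0.1 each). The part of these labelling and RNA differences in the gene results was not tested. Pkhd1 has no probe set of its own name here, so no value is given for it.

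Of 10891 genes tested, 339 were called (3.11%), which means a limma adjusted p under 0.05 and a difference of at least 1.5-fold. Of these, 184 were higher in PCK (1.69% of genes tested) and 155 lower (1.42%). All genes past 1.5-fold also passed the adjusted p, so the fold limit set the calls (36.1% of genes passed the adjusted p alone). At the limit, the solute carrier Slc30a3 was just inside with a difference of 0.59, and the uroplakin Upk1b (0.58) and the clock gene Per3 (-0.58) were just outside. The typical called gene moved little: the median size was 0.81 (log2) among higher and 0.82 among lower genes, 67 and 44 reached 2-fold, and 8 and 8 reached 4-fold. Among the higher genes 30 were below the detection level in SD alone, and among the lower genes 23 were below it in PCK alone. A further 3 higher and 6 lower genes were below it in both pools and were tested because an FHH pool reached it. For all these genes the log2 difference is given with no fold. PCK and SD arrays did not overlap for any called gene, against a background of 47.5% of genes tested whose arrays did not overlap. Over all tested genes 5381 differences were positive, the median difference was -0.0027, the median size of a difference 0.10 and the median SE 0.05.

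**Figure D1:**
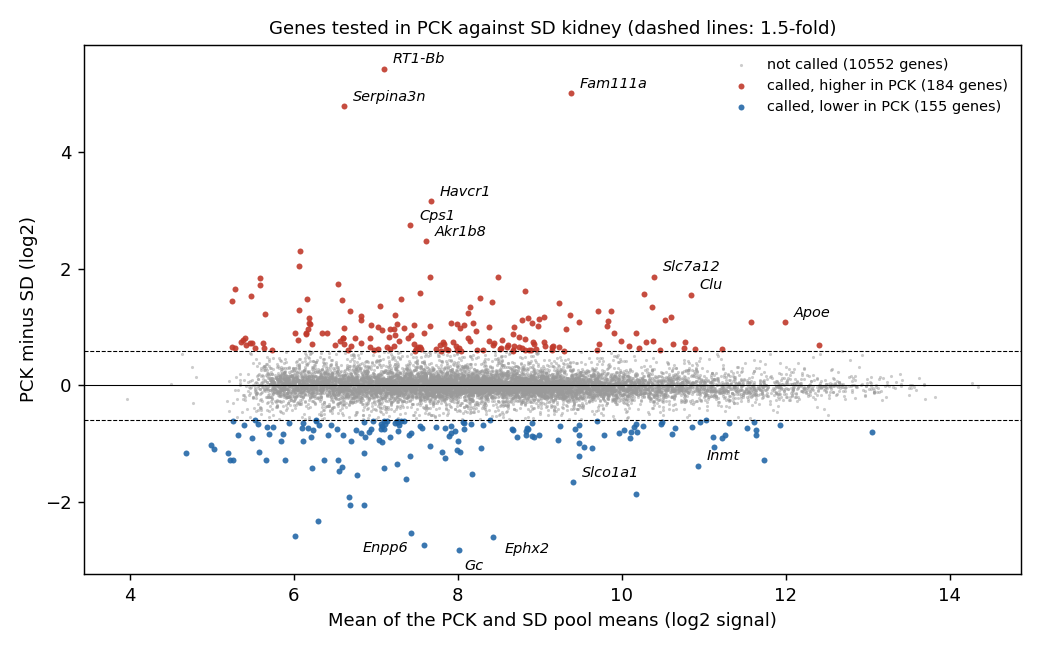
Each point is 1 of the genes tested, with the mean of the PCK and SD pool means on the horizontal axis (log2 signal) and PCK minus SD on the vertical axis (log2). The 184 genes called higher in PCK are red and the 155 called lower are blue; most lie close to the dashed 1.5-fold lines, and Fam111a, Serpina3n and the kept probe set of RT1-Bb lie alone above a difference of 4.

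The largest increases in PCK were those of Fam111a and Serpina3n. Fam111a, a nuclear serine protease, was at 11.85, 11.92 and 11.88 in PCK and 6.87, 6.90 and 6.87 in SD, a 32.1-fold difference (5.00 ± 0.03, SE, limma adjusted p = 2.93e-17). Serpina3n, a secreted inhibitor of serine proteases, was at 8.94, 8.99 and 9.06 in PCK and 4.18, 4.20 and 4.28 in SD (4.78 ± 0.08, adjusted p = 5.44e-13), with all SD arrays under the detection level. A larger difference (5.42) came from the kept probe set of RT1-Bb, of the class II histocompatibility genes, but its other probe set was at -5.19, so the gene has no settled direction and is described with its family. Next came Havcr1, which encodes kidney injury molecule 1, at 9.29, 9.14 and 9.33 in PCK and 6.08, 6.07 and 6.14 in SD. The urea cycle enzyme carbamoyl phosphate synthetase, Cps1, followed at 8.78, 8.88 and 8.72 in PCK and 6.00, 6.05 and 6.08 in SD, a 6.72-fold difference, and its other detected probe set gave 1.80. For each of these genes the 3 arrays of a pool lay close together and far from those of the other pool.

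The other genes among the 20 largest increases came from unlike families. They included the aldo-keto reductase Akr1b8 at 8.82, 8.91 and 8.82 in PCK and 6.62, 6.18 and 6.34 in SD, the phosphatase Dusp15 (2.31 ± 0.11) and the hemidesmosome collagen Col17a1 (2.05 ± 0.08), both under the detection level in SD, and the amino acid transporter Slc7a12 at 11.35, 11.33 and 11.29 in PCK and 9.43, 9.46 and 9.49 in SD. Pamr1, a secreted protein with a protease-like domain, was at 9.40, 9.51 and 9.37 in PCK and 7.63, 7.56 and 7.49 in SD, and the clathrin adaptor Snap91 at 8.62, 8.55 and 8.60 in PCK and 6.67, 6.83 and 6.71 in SD. The plasma glycoprotein Hrg was at 9.68, 9.52 and 9.68 in PCK and 8.12, 7.92 and 8.01 in SD, the leukocyte protease inhibitor Slpi at 8.27, 8.32 and 8.38 in PCK and 6.71, 6.87 and 6.66 in SD, and the large adhesion receptor Adgrv1 at 11.03, 11.09 and 11.07 in PCK and 9.55, 9.49 and 9.43 in SD. The pools do not overlap in these genes because only genes without overlap were taken. Lypd2 (1.73 ± 0.07), the muscle filament gene Neb (1.72 ± 0.09), the polarity gene Pard6g (1.65 ± 0.13) and the ferritin receptor Scara5 (1.53 ± 0.10) had signals in SD under the detection level. The same held for Brcc3-ps7 (1.84 ± 0.13), a pseudogene whose probes may also read its parent gene.

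The largest decrease was that of Gc, the vitamin D binding protein, at 6.46, 6.74 and 6.61 in PCK and 9.43, 9.46 and 9.38 in SD, 7.06-fold lower in PCK (adjusted p = 5.17e-11). Enpp6, a choline phosphodiesterase, was at 5.99, 6.49 and 6.18 in PCK and 8.91, 8.98 and 8.96 in SD. The soluble epoxide hydrolase Ephx2, which degrades epoxides of arachidonic acid, was at 7.09, 7.23 and 7.09 in PCK and 9.77, 9.73 and 9.71 in SD, with a 6.05-fold difference and adjusted p = 3.83e-13. In each of these the SD arrays agreed closely and the PCK arrays spread more. The protocadherin Pcdh9 (-2.57 ± 0.08, and -1.04 in its other detected probe set) and the endocrine secretory protein Resp18 (-2.33 ± 0.06) fell below the detection level in PCK. The ATP-gated channel P2rx4 was at 7.20, 7.55 and 7.52 in PCK and 9.03, 8.87 and 8.90 in SD, and the DNA ligase Lig4, of non-homologous end joining, at 6.49, 6.67 and 6.60 in PCK and 7.97, 7.95 and 7.89 in SD. Inmt, an N-methyltransferase of small amines, was the most abundant gene in this group and nearly without array spread, at 10.23, 10.22 and 10.29 in PCK and 11.63, 11.61 and 11.62 in SD. Others were the tubulin Tube1 (-1.52 ± 0.10), Ccdc167 (-1.46 ± 0.07), Lhfpl2 (-1.41 ± 0.09) and the secretoglobin Scgb1c1 (-1.41 ± 0.11). Scgb1c1 had a PCK mean under the detection level.

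**Figure D2:**
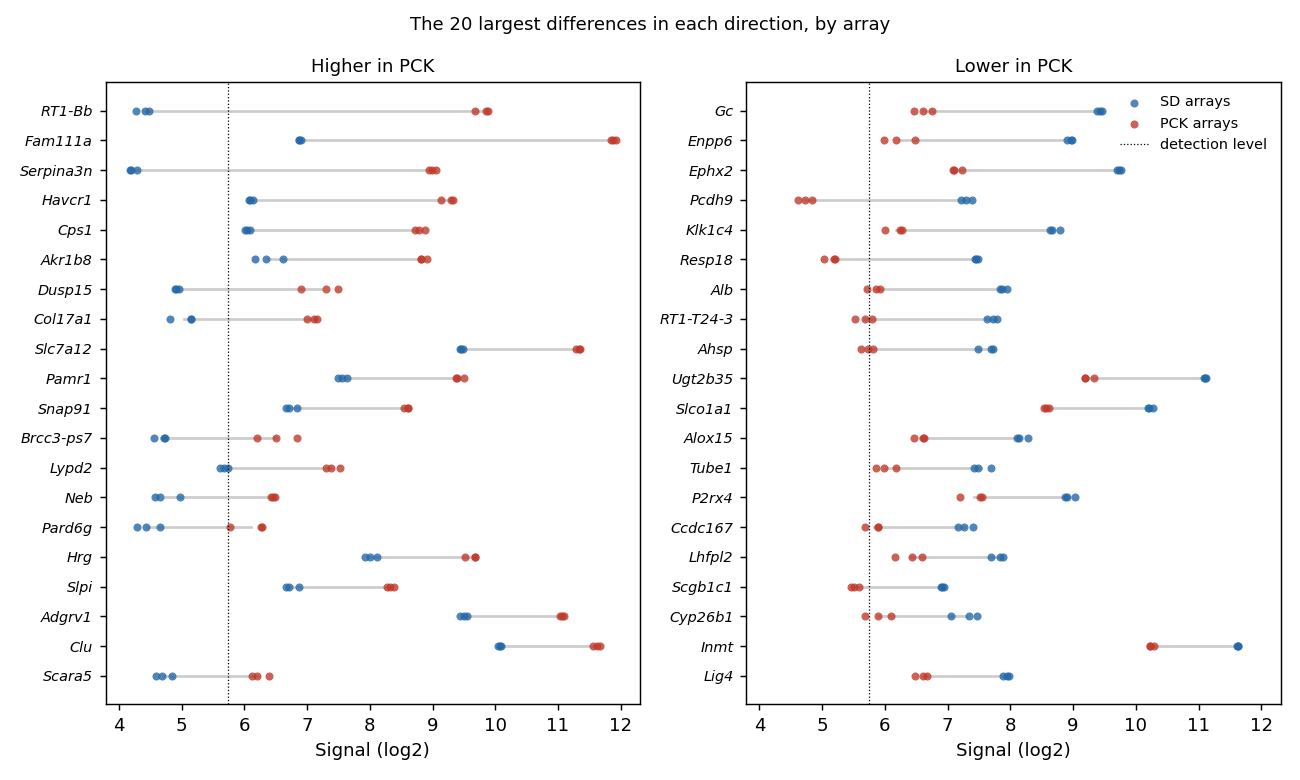
The horizontal axis is the signal (log2) of each PCK array (red) and SD array (blue) for the 20 genes with the largest differences in each direction, with a grey line from one pool mean to the other and a dotted line at the detection level of 5.75. Only genes without overlapping pools were taken, and several genes of the left panel, from RT1-Bb to Scara5, have their SD arrays left of the dotted line.

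Genes of known functions and cell types were then taken by list: 46 lists held 657 distinct tested genes, of which 48 were called higher (7.31%) and 40 lower (6.09%) in PCK, against 1.69% and 1.42% of all genes tested. The lists were chosen with earlier results of these data known, and nothing is read from this difference in shares. The same background applies to each list count below. The other 251 called genes were in no list. Among these 657 genes the largest groups of calls were those of plasma proteins, fatty acid oxidation, tubule injury, sterol synthesis and eicosanoids. Where a gene belongs to a family of near-identical copies (RT1, Klk1, Akr1c, Ugt2b, Hba, Nat8 and Slc22a genes), its probes may also read a relative.

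Tubule injury and repair genes were mostly at higher signals in PCK. Of 24 listed genes 21 were tested, 4 were called higher and 1 lower, 17 of 21 differences were positive, and the list's median was 0.37 against -0.0027 over all genes tested. Havcr1 was the largest, at 8.9-fold. Clusterin, Clu, a secreted chaperone, was at 11.67, 11.56 and 11.62 in PCK and 10.09, 10.04 and 10.08 in SD, a 2.93-fold difference. Gpnmb, a lysosomal membrane glycoprotein of phagocytic cells, was at 7.21, 7.46 and 7.27 in PCK and 6.02, 6.13 and 5.99 in SD, and the simple-epithelium keratin Krt19 at 9.26, 9.28 and 9.31 in PCK and 8.66, 8.52 and 8.55 in SD. In these genes every PCK array was above every SD array, as in all genes called higher. The trefoil peptide Tff3, abundant in tubule cells, fell, at 11.33, 11.29 and 11.30 in PCK and 11.99, 11.87 and 11.92 in SD, a call lost with quantile normalization (-0.57). Several other members passed the adjusted p without reaching 1.5-fold: osteopontin, Spp1 (0.58 ± 0.03), lipocalin 2, Lcn2 (0.54 ± 0.04), the keratin Krt18 (0.51 ± 0.05), galectin 3, Lgals3 (0.47 ± 0.04), the cell cycle inhibitor Cdkn1a (0.45 ± 0.07) and the hyaluronan receptor Cd44 (0.44 ± 0.07). Vimentin, Vim (-0.06 ± 0.04), Gdf15 (-0.01 ± 0.07) and Vcam1 (-0.20 ± 0.04), which also mark injured tubules, were near or below 0.

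**Figure D3:**
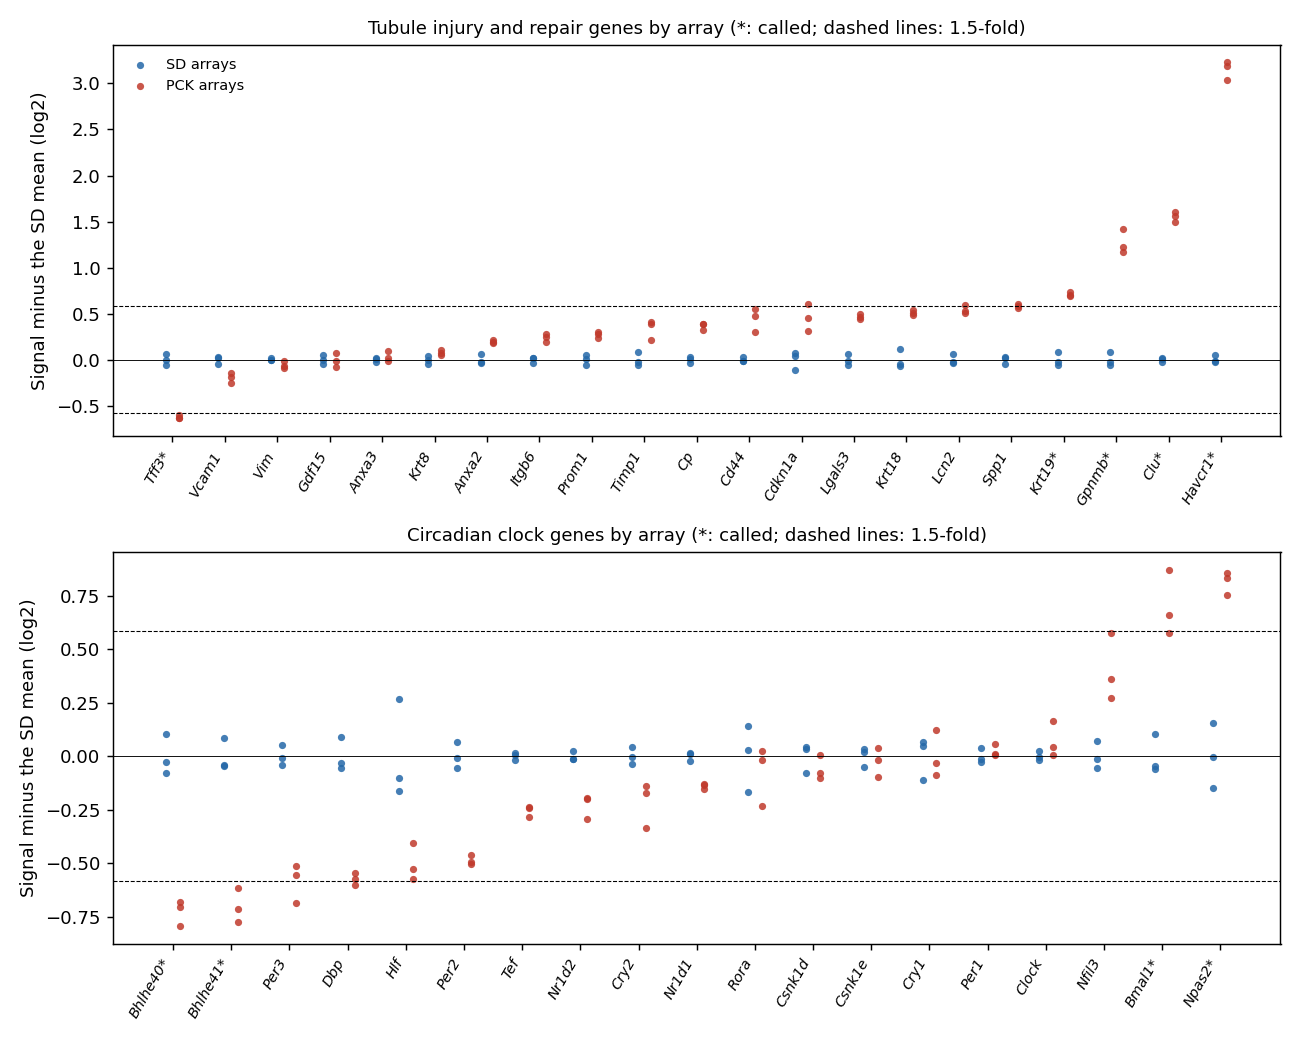
Each column is a gene, with its 3 SD arrays (blue) and 3 PCK arrays (red) plotted as signal minus the SD mean (log2), genes ordered by their difference and asterisks on called genes. In the upper panel Havcr1, Clu, Gpnmb and Krt19 are past the upper 1.5-fold line on the right and Tff3 past the lower one on the left, and in the lower panel Bhlhe40 and Bhlhe41 lie at the low end and Bmal1 and Npas2 at the high end.

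Plasma proteins and clotting factors split in 2 directions. Of 20 tested members of the list of plasma carriers, acute phase and coagulation proteins, 6 rose and 2 fell, with a median of 0.23. Besides Serpina3n, prothrombin, F2, was at 8.99, 9.10 and 9.004 in PCK and 7.69, 7.46 and 7.43 in SD, and coagulation factor V, F5, at 8.12, 8.21 and 8.20 in PCK and 7.31, 7.06 and 7.10 in SD. The fibrinogen chains Fga and Fgb were at 8.45, 8.61 and 8.48 in PCK and 7.49, 7.46 and 7.44 in SD, and at 7.11, 7.09 and 7.12 in PCK and 6.08, 6.14 and 6.14 in SD, respectively. Fibrinogen is the protein that thrombin, the product of F2, cleaves to form a clot, and factor V is a cofactor of the step that makes thrombin. Apolipoprotein E, Apoe, an abundant lipid carrier, was at 12.55, 12.51 and 12.54 in PCK and 11.49, 11.42 and 11.44 in SD. Against these, Gc fell by 2.82 (log2) and albumin, Alb, was at 5.71, 5.92 and 5.86 in PCK and 7.84, 7.86 and 7.95 in SD, with its other detected probe set at -0.72. The summed red cell signal was lower in PCK in the same arrays, at 13.09 to 13.15 in PCK and 14.06 to 14.07 in SD, and its part in the plasma genes was not tested. Tissue factor, F3 (-0.40 ± 0.05), fetuin A, Ahsg (-0.40 ± 0.14), haptoglobin, Hp (0.09 ± 0.09), and transthyretin, Ttr (-0.01 ± 0.10), were not called.

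Many acute phase genes are turned on by STAT3, which binds sites of the form TTCNNNGAA. This motif, searched on both strands in the 250 bases before the start site, lies in 7.67% of 33469 RefSeq promoters. Of the 15 genes of the list that matched a promoter, 4 held it, and of the 8 called ones 3 did: Fga, Fgb and Serpina3n. A gene was counted when any of its promoters held the motif, while the share is of single promoters. The gene counts and the share are therefore not directly comparable. The promoters of Serpina3n and Fgb are shown because their genes were among the called ones, with the matched letters in capitals, from RefSeq on GRCr8. A match is a description of the letters only. The motifs and the promoters shown were chosen after the values were seen.
Serpina3n, chr6:129088142-129088391, plus strand: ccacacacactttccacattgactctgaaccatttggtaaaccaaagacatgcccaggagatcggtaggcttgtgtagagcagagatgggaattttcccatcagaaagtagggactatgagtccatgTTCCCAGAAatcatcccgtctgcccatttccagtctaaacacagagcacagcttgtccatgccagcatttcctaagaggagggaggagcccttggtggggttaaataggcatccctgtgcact
Fgb, chr2:170700876-170701125, minus strand: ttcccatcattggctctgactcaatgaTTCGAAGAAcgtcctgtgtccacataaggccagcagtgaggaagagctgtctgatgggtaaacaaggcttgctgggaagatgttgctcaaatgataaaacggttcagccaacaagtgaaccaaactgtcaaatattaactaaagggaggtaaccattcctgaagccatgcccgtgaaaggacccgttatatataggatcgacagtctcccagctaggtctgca

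Among 14 tested complement genes 2 rose and none fell, around a median of 0.24. Serping1, the inhibitor of the first complement component, was at 11.14, 10.93 and 11.05 in PCK and 9.73, 9.70 and 9.66 in SD, 2.54-fold higher in PCK. Complement factor I, Cfi, which inactivates C3b, was at 6.50, 6.77 and 6.52 in PCK and 5.66, 5.79 and 5.65 in SD. The SD mean of Cfi was under the detection level. Both called members are inhibitors of the cascade. C3 itself was -0.08 ± 0.08 and C5 0.31 ± 0.04. The C1 proteases C1r (0.26 ± 0.08) and C1s (0.28 ± 0.03) and the surface inhibitor Cd55 (0.44 ± 0.07) were positive but not called. The macrophage products C1qa, C1qb and C1qc lay between -0.0044 and 0.063. In the serpin family, looked at after its values were seen, 3 of 14 tested genes rose and 2 fell: with Serpina3n and Serping1 the inhibitor of factor X, Serpina10 (1.13 ± 0.04), was called higher, and Serpine2 (-0.89 ± 0.05) and Serpinb9 (-0.85 ± 0.05) lower.

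Of the genes of cystic disease and the cilium, 1 of 21 tested was called. It was Bbs1, a subunit of the BBSome that carries membrane proteins into cilia, at 6.64, 6.91 and 6.82 in PCK and 7.44, 7.44 and 7.34 in SD, and its call was lost when the first PCK array was left out (-0.54) and when its probe sets were averaged (-0.55). The polycystins Pkd1 (0.02 ± 0.05) and Pkd2 (0.11 ± 0.07), the intraflagellar transport genes Ift88 (0.09 ± 0.05) and Ift20 (-0.10 ± 0.06), Tmem67 (0.01 ± 0.03) and Dzip1l (-0.02 ± 0.05), another recessive polycystic disease gene, all stayed within 0.11 of 0. Ift140 (0.30 ± 0.05), Bbs2 (0.30 ± 0.04) and Ganab (0.30 ± 0.06) were the most positive. The list's median was 0.01, and 12 of 21 differences were positive.

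In vasopressin and cyclic AMP signalling 2 of 17 tested genes were called, both lower. Creb1, the transcription factor that protein kinase A activates, was at 7.09, 7.31 and 7.33 in PCK and 8.56, 8.30 and 8.26 in SD, 2.19-fold lower in PCK. The V1a vasopressin receptor Avpr1a was at 5.14, 5.38 and 5.43 in PCK and 6.18, 5.95 and 5.97 in SD, where the PCK arrays were under the detection level. The V2 receptor of the collecting duct, Avpr2, was not called, at 0.09 ± 0.04. The adenylyl cyclases Adcy3, Adcy5, Adcy6 and Adcy9 lay between -0.12 and 0.18, the kinase subunits Prkaca, Prkacb, Prkar1a, Prkar2a and Prkar2b between -0.03 and 0.13, and the phosphodiesterase Pde4b was the most positive at 0.39 ± 0.05. In the EGF receptor axis 1 of 11 tested genes was called: amphiregulin, Areg, a ligand of the receptor, at 4.59, 4.73 and 4.57 in PCK and 5.97, 5.85 and 5.88 in SD, where the PCK arrays were under the detection level. Among the others, Egf itself (-0.02 ± 0.04), the receptor Egfr (0.32 ± 0.05), the ligand Nrg1 (0.50 ± 0.06) and the feedback inhibitor Errfi1 (-0.35 ± 0.03) were not called.

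Markers of the collecting duct were at higher signals in PCK. In bulk tissue, fewer cells of a type and less RNA per cell cannot be told apart, and this holds for all cell type lists here. Of 11 principal cell markers 10 had positive differences, with a median of 0.31, and 1 was called: the basolateral water channel Aqp3, at 11.26, 11.24 and 11.12 in PCK and 10.53, 10.54 and 10.65 in SD. The apical water channel Aqp2, at 12.70, 12.65 and 12.74 in PCK and 12.21, 12.16 and 12.09 in SD, stood apart in all arrays but did not reach 1.5-fold (0.54 ± 0.04, adjusted p = 3.14e-07). All 3 subunits of the epithelial sodium channel were positive, Scnn1a at 7.49, 7.31 and 7.54 in PCK and 6.88, 7.11 and 6.85 in SD, Scnn1b at 0.44 ± 0.05 and Scnn1g at 0.35 ± 0.04. The summed signal of the markers (log2) was 13.88 to 13.91 in PCK and 13.49 to 13.54 in SD.

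All 8 tested intercalated cell markers were at or above 0, with a median of 0.40, and Foxi1, the transcription factor of that cell type, was called at 8.84, 8.86 and 8.81 in PCK and 8.12, 8.22 and 8.28 in SD. The ammonia channel Rhcg (0.57 ± 0.04), the proton pump subunit Atp6v1g3 (0.46 ± 0.04), the chloride exchanger pendrin, Slc26a4 (0.43 ± 0.05), and Dmrt2 (0.37 ± 0.06) were positive without being called. Atp6v0a4, the most abundant member, overlapped between pools at 11.76, 11.74 and 11.76 in PCK and 11.74, 11.77 and 11.74 in SD. No podocyte marker was called among 7 tested, around a median of 0.29: Wt1 was at 7.53, 7.81 and 7.74 in PCK and 7.42, 7.35 and 7.19 in SD, nephrin, Nphs1, at 8.12, 8.30 and 8.16 in PCK and 7.88, 7.91 and 7.88 in SD, and the abundant Podxl overlapped at 9.90, 9.98 and 9.99 in PCK and 9.97, 9.90 and 9.87 in SD.

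The thick ascending limb and the early proximal tubule had no called gene. Among 10 tested markers of the thick ascending limb the largest difference was that of claudin 16, Cldn16, at 9.50, 9.62 and 9.50 in PCK and 9.79, 9.71 and 9.71 in SD, and Slc12a1, the salt transporter of that segment, was 0.02 ± 0.05. Claudin 10, Cldn10, was -0.15 ± 0.03. Of 13 early proximal markers 10 were negative, with a median of -0.07, Slc7a8 (-0.28 ± 0.05) and Slc7a7 (-0.26 ± 0.04) lowest and the albumin receptor Cubn (0.25 ± 0.03) highest. The straight segment of the proximal tubule differed: 3 of its 8 tested markers rose, Slc7a12, the organic anion transporter Slc22a7, at 8.90, 8.91 and 8.97 in PCK and 8.11, 8.14 and 8.18 in SD, and Slc22a13, at 7.93, 7.65 and 7.89 in PCK and 7.24, 7.13 and 6.97 in SD. Its most abundant marker, Slc7a13, moved by only 0.16 ± 0.03, while Slc22a2 (-0.21 ± 0.06), Acsm3 (-0.25 ± 0.06) and Slc17a3 (-0.20 ± 0.04) were negative.

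In the distal convoluted and connecting tubule 1 of 7 tested markers rose and 2 fell. Calbindin, Calb1, the calcium buffer of these cells, was at 11.60, 11.60 and 11.57 in PCK and 12.25, 12.28 and 12.31 in SD, and tissue kallikrein, Klk1, at 10.68, 10.63 and 10.61 in PCK and 11.32, 11.23 and 11.24 in SD. The apical calcium channel Trpv5 was at 5.77, 5.85 and 5.96 in PCK and 4.98, 5.20 and 5.21 in SD, with SD under the detection level. The sodium-chloride cotransporter Slc12a3, which defines the segment, was 0.04 ± 0.06, and the sodium-calcium exchanger Slc8a1 -0.30 ± 0.04. The list's median was -0.07. The summed signal was 12.70 to 12.74 in PCK and 13.24 to 13.25 in SD, and Calb1, called lower, is the most abundant member in that sum. Genes of calcium, phosphate and vitamin D handling gave 2 higher and 2 lower of 19. Beside Trpv5, Gc and Calb1 the fourth was the phosphate transporter Slc34a2, at 8.76, 8.74 and 8.74 in PCK and 7.44, 7.60 and 7.48 in SD. The main renal phosphate transporters Slc34a1 (-0.04 ± 0.03) and Slc34a3 (-0.11 ± 0.04), klotho, Kl (-0.45 ± 0.08), and the vitamin D activating enzyme Cyp27b1 (-0.30 ± 0.08) were not called.

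None of 22 tested genes of sodium and potassium transport was called, and the largest differences were those of the 3 sodium channel subunits given above. The cotransporters, pump subunits and regulatory kinases (Slc12a1, Slc12a3, Slc9a3, Atp1b1, Fxyd2, Wnk1, Stk39, Oxsr1 and Sgk1) lay between -0.06 and 0.12. In the renin-angiotensin and kallikrein-kinin list 1 of 12 rose and 2 fell. Angiotensin converting enzyme, Ace, was at 7.04, 6.47 and 6.63 in PCK and 5.37, 5.38 and 5.53 in SD, with SD under the detection level. The kallikrein Klk1c4 was at 6.01, 6.24 and 6.26 in PCK and 8.63, 8.67 and 8.79 in SD. The kallikrein genes Klk1b3 (-0.51 ± 0.05) and Klk1c10 (-0.55 ± 0.11) were negative without a call, so that the differences of all 4 tested Klk genes were negative. The angiotensin receptors Agtr1a (-0.25 ± 0.03) and Agtr1b (-0.52 ± 0.07) and angiotensinogen, Agt (0.41 ± 0.07), were not called. The median of this list, -0.11, turned to 0.03 with median centring.

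Most sterol synthesis genes had negative differences, with a median of -0.20, 14 of 19 negative, 4 called lower and 1 higher. The called genes lie along the pathway: Idi1, which makes the isoprenoid unit, was at 8.80, 8.88 and 8.95 in PCK and 10.09, 10.02 and 10.12 in SD, squalene epoxidase, Sqle, at 7.20, 7.27 and 7.12 in PCK and 7.99, 7.84 and 7.82 in SD, lanosterol synthase, Lss, at 7.49, 7.47 and 7.42 in PCK and 8.35, 8.33 and 8.30 in SD, and Hsd17b7, of the later steps, at 6.42, 6.52 and 6.63 in PCK and 7.26, 7.43 and 7.26 in SD. Every PCK array was below every SD array in each, as in all genes called lower. The other detected probe sets gave -1.04 for Idi1, -0.65 for Hsd17b7 and -0.46 for Lss, the last short of 1.5-fold. Below 1.5-fold, Cyp51 (-0.41 ± 0.04), Msmo1 (-0.30 ± 0.04), Nsdhl (-0.28 ± 0.04), Insig1 (-0.27 ± 0.03) and Fdps (-0.22 ± 0.05) were on the same side. Fdft1 (0.14 ± 0.03), Acat2 (0.15 ± 0.06) and Pmvk (0.16 ± 0.04) were positive. Sc5d, of the last steps, was called higher at 9.56, 9.78 and 9.59 in PCK and 8.59, 8.32 and 8.51 in SD, but its other probe sets gave 0.44 and -0.67 and with their mean it was not called (0.32). The transcription factor of the pathway, Srebf2, was -0.05 ± 0.05. None of the 16 list members with a promoter held the sterol regulatory element TCACNCCAC in the 250 bases before the start site, and 0.974% of all promoters did. With a share this low, 0 of 16 genes is likely for any list, and nothing is read from it.

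Fatty acid synthesis genes showed no such shift. Of 16 tested, only the desaturase Scd was called, at 5.81, 5.37 and 6.13 in PCK and 6.66, 6.75 and 6.57 in SD, and the median was -0.01. Fasn (-0.20 ± 0.04), Acaca (-0.13 ± 0.04), Acly (-0.03 ± 0.04) and Srebf1 (0.02 ± 0.05) were not called. Within fatty acid oxidation 5 of 26 tested genes rose and 2 fell around a median of 0.02. The peroxisomal bifunctional enzyme Ehhadh was at 10.29, 10.37 and 10.32 in PCK and 9.36, 9.31 and 9.27 in SD, and Pdk4, the kinase that spares glucose when fat is burned, at 8.58, 8.66 and 8.54 in PCK and 7.62, 7.54 and 7.53 in SD. Eci2 was at 10.32, 10.41 and 10.38 in PCK and 9.69, 9.56 and 9.59 in SD, Eci1 at 11.52, 11.55 and 11.52 in PCK and 10.95, 10.89 and 10.90 in SD and the peroxisomal carnitine transferase Crot at 11.09, 11.10 and 11.07 in PCK and 10.45, 10.40 and 10.48 in SD. Ehhadh was 2.02-fold and Pdk4 2.04-fold higher in PCK. The call of Crot was lost when its probe sets were averaged (0.53). The other peroxisomal bifunctional enzyme, Hsd17b4, fell, at 10.96, 10.98 and 11.02 in PCK and 11.66, 11.61 and 11.64 in SD. Acadsb fell as well (-1.02 ± 0.18), from an SD mean already under the detection level. The mitochondrial core of the pathway, Cpt1a (0.15 ± 0.04), Cpt2 (0.01 ± 0.06), Acadm (-0.16 ± 0.03), Acadl (-0.14 ± 0.04), Hadha (0.16 ± 0.04) and Hadhb (0.02 ± 0.03), was not called.

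Lipoprotein lipase, Lpl, which frees fatty acids from circulating lipoproteins, was called higher at 10.29, 10.39 and 10.37 in PCK and 9.08, 9.11 and 9.05 in SD. It stands in the fat cell list, where Cidea was also called, at 8.19, 8.22 and 8.15 in PCK and 7.60, 7.66 and 7.49 in SD, a call lost without the third SD array (0.56). The defining fat cell genes did not follow: Adipoq was -0.19 ± 0.08, Plin1 -0.02 ± 0.08 and Fabp4 -0.38 ± 0.06, and the list's median was -0.02. Among called genes of lipid handling outside the lists, picked after their values were seen, were the lipase inhibitor Angptl4 (1.04 ± 0.08), the lipase cofactor Apoc2 (1.002 ± 0.05), the bile acid and fatty acid ligase Slc27a5 (0.89 ± 0.11) and the pantetheinase Vnn1 (1.18 ± 0.04). The SD mean of Slc27a5 was under the detection level.

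Eicosanoid genes gave 5 calls among 19 tested, all lower. Beside Ephx2, the lipoxygenase Alox15 was at 6.62, 6.47 and 6.61 in PCK and 8.28, 8.13 and 8.11 in SD, 3.05-fold lower. Cyclooxygenase 2, Ptgs2, was at 8.47, 8.45 and 8.48 in PCK and 9.28, 9.31 and 9.42 in SD, and Hpgd, which inactivates prostaglandins, at 10.14, 10.16 and 10.16 in PCK and 10.79, 10.78 and 10.86 in SD. The epoxygenase Cyp2c11 fell by 1.15 (log2), from 5.87, 5.75 and 5.71 in SD to below the detection level. So enzymes of each of the lipoxygenase, cyclooxygenase and epoxide branches were among those called. Cyclooxygenase 1, Ptgs1 (0.50 ± 0.05), and the omega-hydroxylase Cyp4a3 (0.52 ± 0.03) were positive without a call, and the abundant epoxygenase Cyp2c23 was -0.11 ± 0.03. The microsomal epoxide hydrolase Ephx1 was -0.54 ± 0.04.

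The aldo-keto reductases, which reduce aldehydes and steroids, moved both ways: of 10 tested 1 rose and 3 fell, with a median of -0.17. Akr1b8 rose by 2.47 (log2). Akr1c1 was at 8.99, 9.07 and 8.97 in PCK and 10.10, 10.03 and 10.06 in SD, and Akr1c13 at 10.17, 10.21 and 10.22 in PCK and 11.07, 10.97 and 11.05 in SD. Akr1b10 was called lower at 6.80, 6.35 and 6.56 in PCK and 7.26, 7.34 and 7.34 in SD, but its probe sets disagree: their mean gave -0.11, and the one with the largest variance 0.53. Of glutathione and NRF2 target genes 1 of 23 was called, around a median of 0.014 with 12 of 23 differences positive. It was the quinone reductase Nqo1, at 8.87, 9.05 and 8.98 in PCK and 8.33, 8.46 and 8.34 in SD. Among the 22 that were not called, some of the genes that NRF2 is known to drive were Hmox1 (-0.37 ± 0.05), Gclc (-0.003 ± 0.03), Gclm (0.07 ± 0.05), Srxn1 (-0.45 ± 0.04), Gsr (-0.41 ± 0.06), Txnrd1 (-0.06 ± 0.04) and Gsta1 (-0.40 ± 0.03). The call of Nqo1 was lost without the second PCK array (0.55), the first SD array (0.57) or the third SD array (0.58).

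Among conjugation and drug oxidation genes 3 of 17 tested rose and 1 fell. Fmo5, a flavin monooxygenase, was at 9.53, 9.56 and 9.61 in PCK and 8.52, 8.37 and 8.37 in SD, the sulfotransferase Sult1a1 at 10.02, 10.09 and 10.11 in PCK and 9.45, 9.35 and 9.30 in SD, and the ethanol-oxidizing cytochrome P450 Cyp2e1 at 12.78, 12.69 and 12.78 in PCK and 12.07, 12.08 and 12.04 in SD. The glucuronosyltransferase Ugt2b35 fell 3.64-fold, at 9.19, 9.19 and 9.34 in PCK and 11.11, 11.09 and 11.11 in SD. The acetyltransferases of the Nat8 family, looked at after their values were seen, had 1 gene called in each direction, Nat8f1 (1.12) and Nat8f3 (-0.80), with Nat8 itself at -0.43 ± 0.03.

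Transporters of organic ions were mostly level, with a median of 0.00 over 28 tested genes, 3 called higher and 1 lower. The 3 higher ones are all Slc22a genes, Slc22a7, Slc22a13 and Slc22a24, the last at 10.67, 10.69 and 10.66 in PCK and 9.94, 9.99 and 9.86 in SD. The other 12 tested genes of that family were not called, among them the main anion transporters of the proximal tubule, Slc22a6 (-0.15 ± 0.04) and Slc22a8 (-0.05 ± 0.06). Slco1a1, which takes up bile acids and steroid conjugates, fell 3.14-fold, at 8.54, 8.57 and 8.62 in PCK and 10.19, 10.21 and 10.28 in SD. Its relatives Slco1a4 (-0.25 ± 0.12) and Slco1a6 (0.42 ± 0.04) were not called, nor were the export pumps Abcb1a (0.55 ± 0.05) and Abcc2 (0.54 ± 0.09). For amino acids and peptides 1 of 26 tested transporters was called, Slc7a12. The taurine transporter Slc6a6 (0.46 ± 0.04), Slc38a2 (0.47 ± 0.04), Slc38a1 (0.40 ± 0.05) and Slc7a1 (0.38 ± 0.05) were the next most positive.

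Urea cycle, arginine and creatine genes gave 2 calls of 19, both higher: Cps1 and the agmatine hydrolase Agmat, at 10.92, 10.99 and 11.03 in PCK and 10.31, 10.25 and 10.26 in SD. The enzymes after Cps1 were not called, with Ass1 at -0.04 ± 0.07, Asl at -0.26 ± 0.04 and Arg2 at 0.24 ± 0.04, and Otc was under the detection level in both pools. None of 18 tested genes of glucose production and sugar transport was called. Pck1 was -0.02 ± 0.04, the glucose 6-phosphate transporter Slc37a4 lowest at 11.44, 11.42 and 11.42 in PCK and 11.75, 11.78 and 11.76 in SD, and the hexokinase Hk1 highest at 9.07, 8.87 and 8.95 in PCK and 8.75, 8.64 and 8.60 in SD. In retinoid metabolism 2 of 19 rose and 2 fell. The retinoic acid hydroxylase Cyp26b1 was at 5.90, 6.09 and 5.69 in PCK and 7.06, 7.47 and 7.34 in SD, but its other detected probe set gave -0.13 and their mean -0.76. Rdh16, which oxidizes retinol, was at 7.38, 7.43 and 7.51 in PCK and 8.42, 8.68 and 8.51 in SD. Rarres1, named for its response to retinoic acid, was at 8.78, 8.75 and 8.87 in PCK and 8.11, 8.11 and 8.02 in SD, and the retinol receptor Stra6 at 9.51, 9.74 and 9.53 in PCK and 8.89, 9.02 and 9.08 in SD. The call of Stra6 was lost when its probe sets were averaged (0.38) and without the second PCK array (0.52) or the first SD array (0.54). Aldh1a1, the most abundant enzyme of the list, was 0.02 ± 0.03.

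Clock genes of the positive and negative limbs were called in opposite directions, 2 higher and 2 lower of 19 tested, with a list median of -0.14. The positive limb, the activators that bind E-boxes, was represented by Bmal1, at 6.83, 7.13 and 6.92 in PCK and 6.21, 6.36 and 6.197 in SD, and Npas2, at 7.09, 7.17 and 7.19 in PCK and 6.33, 6.19 and 6.49 in SD. Clock, of the same limb, was 0.07 ± 0.05. On the other side the E-box repressors Bhlhe40 and Bhlhe41 were at 7.14, 7.22 and 7.25 in PCK and 8.03, 7.85 and 7.90 in SD, and at 6.65, 6.71 and 6.81 in PCK and 7.38, 7.51 and 7.38 in SD. No PCK array of these 4 genes reached the SD range, as for every called gene. Other tested genes of the list known to be driven by the activators were not called. Among them Per3 (-0.58 ± 0.05), Dbp (-0.57 ± 0.05), Per2 (-0.49 ± 0.05), Hlf (-0.50 ± 0.12), Tef (-0.25 ± 0.03), Cry2 (-0.22 ± 0.05), Nr1d2 (-0.23 ± 0.03) and Nr1d1 (-0.14 ± 0.04) had negative differences, while Per1 (0.02 ± 0.03) and Cry1 (0.00 ± 0.07), driven by the same activators, were near 0. Nfil3, which opposes Dbp at its sites, was 0.40 ± 0.07. The kinases Csnk1d (-0.06 ± 0.04) and Csnk1e (-0.03 ± 0.04) were near 0. The labels give no hour at which the kidneys were taken, and its part was not tested.

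The promoters of 3 of the called clock genes are shown because they hold the letters through which the clock is known to act, the E-box CACGTG in Bhlhe40 and Bhlhe41 and the ROR core TAGGTCA in Bmal1. The motif is in capitals, and the 250 bases end just before the start site (RefSeq, GRCr8). On both strands, 5.59% of all promoters of this length held the E-box and 2.26% the ROR core. Of the 16 clock genes with a promoter, 4 held the E-box (Bhlhe40, Bhlhe41, Tef and Nr1d1) and 1 the ROR core (Bmal1). Here too a gene was counted when any of its promoters held the letters, so its counts are not directly comparable with the shares of single promoters.
Bmal1, chr1:176766078-176766327, plus strand: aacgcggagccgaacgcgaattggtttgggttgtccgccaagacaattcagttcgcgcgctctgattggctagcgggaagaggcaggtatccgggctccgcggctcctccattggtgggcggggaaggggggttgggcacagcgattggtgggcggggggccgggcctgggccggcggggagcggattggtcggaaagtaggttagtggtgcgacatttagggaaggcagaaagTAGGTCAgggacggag
Bhlhe40, chr4:143174200-143174449, plus strand: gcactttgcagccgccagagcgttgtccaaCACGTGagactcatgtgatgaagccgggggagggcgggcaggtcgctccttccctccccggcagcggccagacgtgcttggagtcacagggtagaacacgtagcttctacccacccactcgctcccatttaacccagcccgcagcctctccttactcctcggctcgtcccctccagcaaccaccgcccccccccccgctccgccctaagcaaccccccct
Bhlhe41, chr4:180569356-180569605, minus strand: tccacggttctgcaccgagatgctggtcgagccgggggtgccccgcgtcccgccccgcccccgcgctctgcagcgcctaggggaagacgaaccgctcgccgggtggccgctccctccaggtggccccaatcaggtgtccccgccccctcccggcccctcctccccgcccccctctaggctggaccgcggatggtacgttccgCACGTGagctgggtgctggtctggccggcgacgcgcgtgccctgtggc

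In antigen presentation 2 of 18 tested genes fell and 1 rose, around a median of 0.00. Cd74, the chaperone of class II molecules, was at 11.18, 11.15 and 11.17 in PCK and 11.94, 11.84 and 11.88 in SD, and the class II chain RT1-Da at 10.33, 10.29 and 10.24 in PCK and 10.99, 11.04 and 11.002 in SD. Other class II genes, RT1-DMa (-0.55 ± 0.05), RT1-Ba (-0.23 ± 0.05) and RT1-Db1 (-0.18 ± 0.06), and their activator Ciita (-0.36 ± 0.08) were negative and not called, and RT1-DMb, also of class II, was 0.07 ± 0.04. B2m, shared by all class I molecules, was -0.07 ± 0.03. The kept probe set of RT1-Bb was at 9.86, 9.68 and 9.89 in PCK and 4.41, 4.48 and 4.27 in SD, and the other one gave -5.19, with 4.28 in PCK and 9.47 in SD. Each probe set was thus near or under the detection level in the pool where the other was high, and their mean gave 0.12. Over the 16 tested RT1 genes, a family looked at after its values were seen, 3 rose and 4 fell: RT1-CE16 (0.89) and RT1-CE10 (0.97) were higher with RT1-Bb, and RT1-CE12 (-0.66) and RT1-T24-4 (-0.85) lower with RT1-Da and RT1-T24-3, the last at 5.79, 5.52 and 5.68 in PCK and 7.78, 7.73 and 7.63 in SD. The PCK mean of RT1-T24-3 was under the detection level.

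Immune cell markers gave few calls. Of 10 tested macrophage markers only the mannose receptor Mrc1 was called, at 6.75, 6.93 and 6.87 in PCK and 5.91, 5.93 and 6.02 in SD. Aif1 (-0.37 ± 0.06) and Adgre1 (-0.33 ± 0.07) were negative, Csf1r (0.04 ± 0.05) and Cd68 (-0.12 ± 0.06) near 0, and the abundant lysozyme Lyz2 0.20 ± 0.04. The summed signal of the macrophage list was 12.48 to 12.51 in PCK and 12.30 to 12.39 in SD, and its part in the complement genes and Gpnmb was not tested. Of 10 measured lymphocyte markers 8 were under the detection level, the T cell receptor chains Cd3d, Cd3e and Cd3g among them, and Ptprc, common to white cells, was at 6.89, 7.05 and 6.91 in PCK and 6.78, 6.81 and 6.81 in SD. The granulocyte and mast cell list had 2 tested genes, neither called, with S100a9 at 4.81, 4.87 and 5.03 in PCK and 4.37, 4.39 and 4.35 in SD, under the detection level in both pools, and Tpsb2 at -0.05 ± 0.08. None of 19 interferon response genes was called, the largest difference being that of Rsad2 (-0.44 ± 0.04) and the next Usp18 (-0.36 ± 0.05). Among 18 tested cytokines and chemokines Ccl20 rose, at 6.71, 6.71 and 6.71 in PCK and 5.49, 5.60 and 5.87 in SD, and Cxcl11, at 8.86, 8.96 and 8.97 in PCK and 8.28, 8.32 and 8.24 in SD. The SD mean of Ccl20 was under the detection level. The monocyte attractant Ccl2 was 0.20 ± 0.05, Il1b -0.11 ± 0.05 and Tgfb1 0.30 ± 0.06.

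In the extracellular matrix 3 of 30 tested genes rose and 1 fell, around a median of -0.02. Lysyl oxidase, Lox, which cross-links collagen, was at 8.69, 8.76 and 8.71 in PCK and 7.69, 7.68 and 7.61 in SD, and the glycoprotein tenascin C, Tnc, at 8.64, 8.64 and 8.58 in PCK and 8.05, 8.01 and 7.95 in SD. Col17a1 was the third. The other detected probe set of Lox gave 0.48, short of 1.5-fold. The gelatinase Mmp9 fell, at 7.04, 7.01 and 6.89 in PCK and 7.87, 7.88 and 7.75 in SD. Fn1 (0.10 ± 0.04), the basement membrane collagens Col4a1 (0.03 ± 0.05) and Col4a2 (-0.51 ± 0.10), and Sparc (-0.25 ± 0.04) were not called. Fibroblast markers had a median of -0.14, with Lum, a collagen-binding proteoglycan, called lower at 5.42, 5.57 and 5.38 in PCK and 6.21, 6.49 and 6.19 in SD, and Col1a1 (-0.38 ± 0.04), Col1a2 (-0.18 ± 0.03) and Col3a1 (-0.20 ± 0.04) negative. Dcn (0.22 ± 0.04) and Pdgfra (0.29 ± 0.04), from the same cells, were positive. The PCK mean of Lum was under the detection level.

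Among 10 tested endothelial markers only von Willebrand factor, Vwf, was called, at 6.97, 6.93 and 6.93 in PCK and 6.12, 6.19 and 6.24 in SD. Pecam1 was 0.44 ± 0.05, Plvap 0.27 ± 0.04, Kdr 0.02 ± 0.04 and the most abundant, Emcn, 0.04 ± 0.03. No smooth muscle or mural marker was called, with Rgs5 lowest (-0.41 ± 0.05), Mylk at -0.08 ± 0.04, Acta2 at -0.05 ± 0.06 and Myh11 at 0.12 ± 0.05.

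Proliferation genes were at lower signals in PCK: 25 of 28 tested cell cycle genes were negative, with a median of -0.16, although only Cenpf, a centromere protein, was called, at 6.67, 6.80 and 6.72 in PCK and 7.44, 7.60 and 7.36 in SD. Ccnb2 (-0.49 ± 0.07), Mki67 (-0.48 ± 0.07), Ccnb1 (-0.47 ± 0.06) and Cdk1 (-0.46 ± 0.05) were next. The replication genes Mcm2 (-0.11 ± 0.04), Mcm7 (-0.03 ± 0.03) and Pcna (-0.16 ± 0.04) were nearer 0, and Ccnd1, of the G1 phase, was 0.18 ± 0.05. No immediate early gene was called among 13 tested, with Jun lowest (-0.41 ± 0.09), Jund highest (0.38 ± 0.06) and Egr1 at 0.10 ± 0.05. None of 23 stress chaperone and unfolded protein response genes was called. Hspa5 was -0.19 ± 0.05, Ddit3 -0.05 ± 0.06, Asns 0.25 ± 0.05 and Trib3 0.23 ± 0.15.

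Markers of blood and of tissues next to the kidney were measured as well. All 4 tested red cell genes fell: the globins Hbb, at 12.66, 12.68 and 12.64 in PCK and 13.45, 13.47 and 13.44 in SD, and Hba-a3, at 11.10, 11.16 and 11.03 in PCK and 12.35, 12.38 and 12.41 in SD, the heme enzyme of erythroid cells Alas2, at 7.44, 7.33 and 7.60 in PCK and 8.69, 8.50 and 8.58 in SD, and the hemoglobin chaperone Ahsp, at 5.62, 5.82 and 5.73 in PCK and 7.73, 7.49 and 7.68 in SD. Every PCK array lay below every SD array in each of them, as in all genes called lower. The PCK mean of Ahsp was under the detection level. No urothelial marker was called among 6 tested, around a median of 0.35. The uroplakins Upk1b, at 6.50, 6.45 and 6.51 in PCK and 6.03, 5.73 and 5.94 in SD, and Upk3a, at 7.07, 7.01 and 6.90 in PCK and 6.61, 6.44 and 6.37 in SD, were highest, Upk2 was 0.09 ± 0.07, and the most abundant, Krt7, was -0.10 ± 0.04. Their summed signal overlapped between the pools, at 11.44 to 11.52 in PCK and 11.46 to 11.49 in SD, and Krt5 and Krt20 were under the detection level in both pools. No adrenal marker was called among 5 tested, around a median of -0.10. Akr1b7 differed by -0.23 ± 0.05, under the detection level in both pools, and Cyp21a1 at 0.22 ± 0.10. Their summed signal was 7.76 to 7.92 in PCK and 7.85 to 7.89 in SD.

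**Figure D4:**
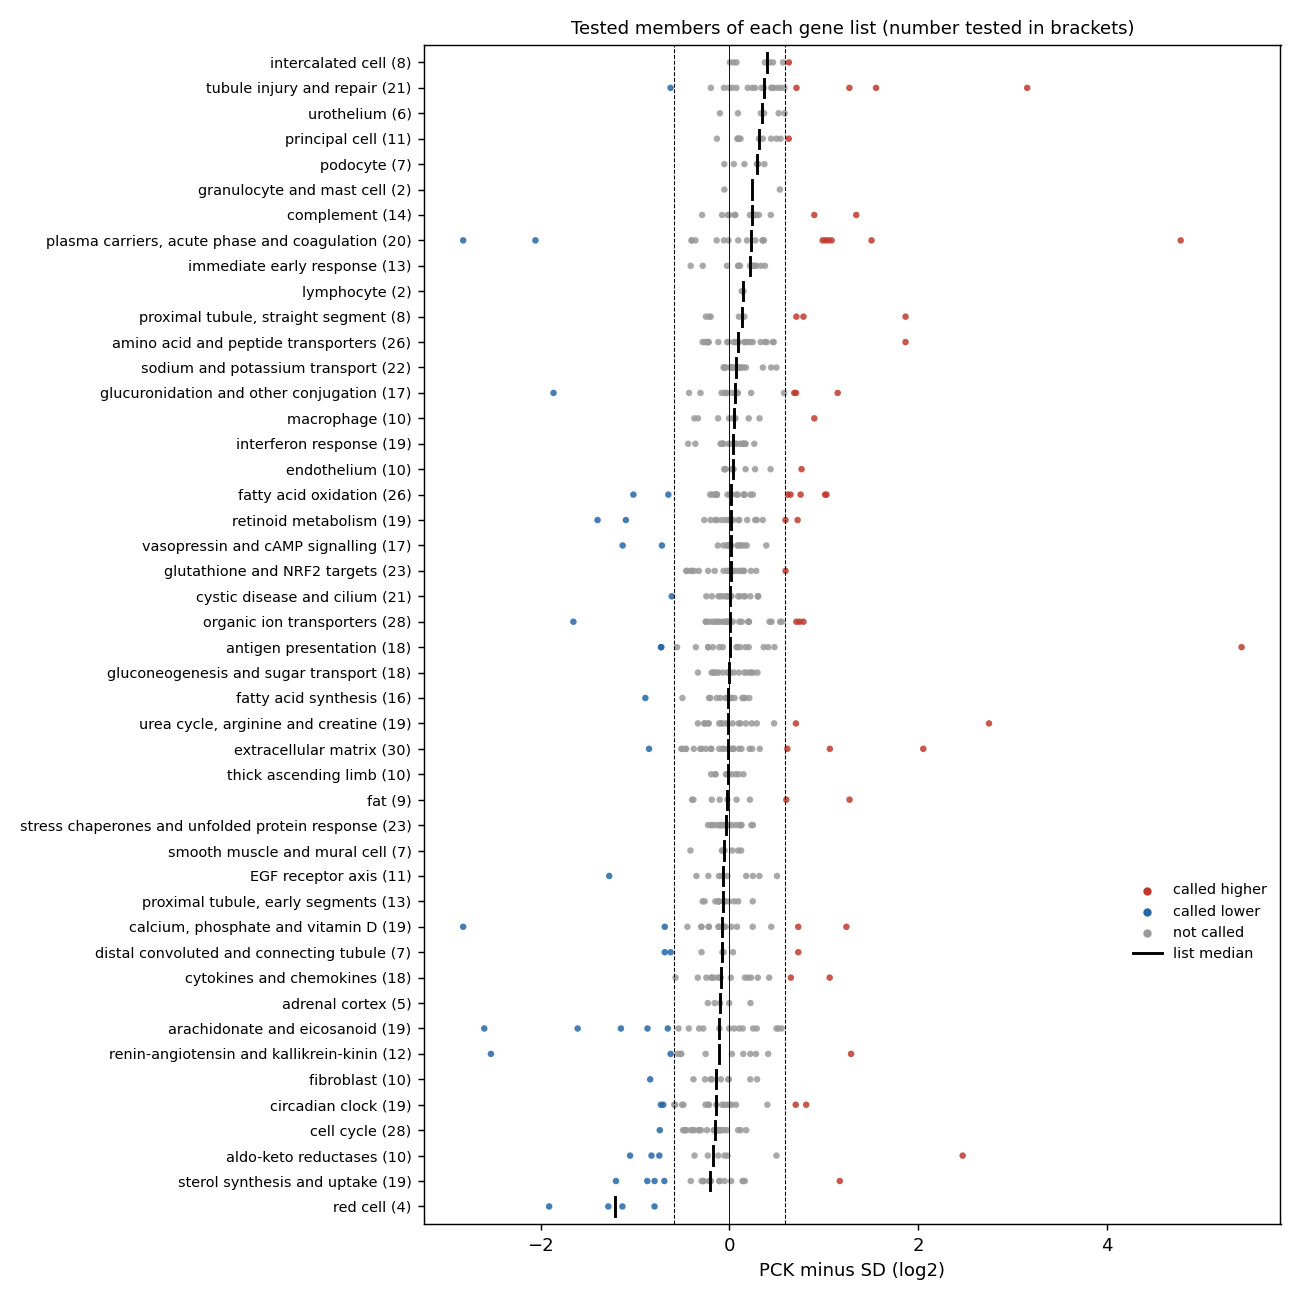
Each row is 1 of the 46 gene lists with the number of tested members in brackets, each point is a member's PCK minus SD difference (log2), and the black bar is the list's median. Medians run from -1.21 for red cell genes to 0.40 for intercalated cell genes, and most members of most lists lie between the dashed 1.5-fold lines.

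Some secreted and regulatory genes outside the lists were picked after their values were seen. Called higher were the growth factor binding protein Igfbp1 (1.28 ± 0.05), the BMP antagonist Grem1 (1.41 ± 0.05), the Wnt antagonist Frzb (0.97 ± 0.04), the Wnt target Axin2 (0.81 ± 0.10), the calcium-regulating hormone Stc1 (1.15 ± 0.05) and the stress-response gene Nupr1 (1.10 ± 0.04). The epithelial immunoglobulin receptor Pigr (1.21 ± 0.04), the ubiquitin-like Ubd (1.43 ± 0.06), the mucosal scavenger receptor protein Dmbt1 (1.48 ± 0.08) and the liver protein Fetub (1.45 ± 0.06) rose too. The ciliary gene Dcdc2, in which mutations cause a renal and hepatic ciliopathy, was 0.77 ± 0.06. Called lower were the matricellular Ccn1 (-1.21 ± 0.11), the protease of insulin-like growth factor binding proteins Pappa2 (-1.27 ± 0.09), carbonic anhydrase 3, Car3 (-0.74 ± 0.06), and the vascular peptide apelin, Apln (-0.61 ± 0.07). The SD means of Axin2 and Dmbt1 and the PCK mean of Pappa2 were under the detection level.

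Most calls rest on a single probe set. Of the 184 genes called higher 143 had 1 detected probe set, and of the 155 called lower 117 did. Where others existed, all had the same sign in 37 of 41 higher genes and in 31 of 38 lower genes, and another also passed 1.5-fold the same way in 12 and 17. In 4 genes a probe set passed 1.5-fold the opposite way: RT1-Bb, Sc5d, the cholesterol exporter Abca1 and the prolactin receptor Prlr. The kept probe set of Abca1 was at 7.44, 7.49 and 7.52 in PCK and 8.22, 8.15 and 8.25 in SD, and the other gave 1.05. For Prlr the kept one was at 10.75, 10.81 and 10.75 in PCK and 11.71, 11.71 and 11.61 in SD, and the others gave 0.90 and 0.13. These 4 genes therefore have no settled direction in PCK.

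**Figure D5:**
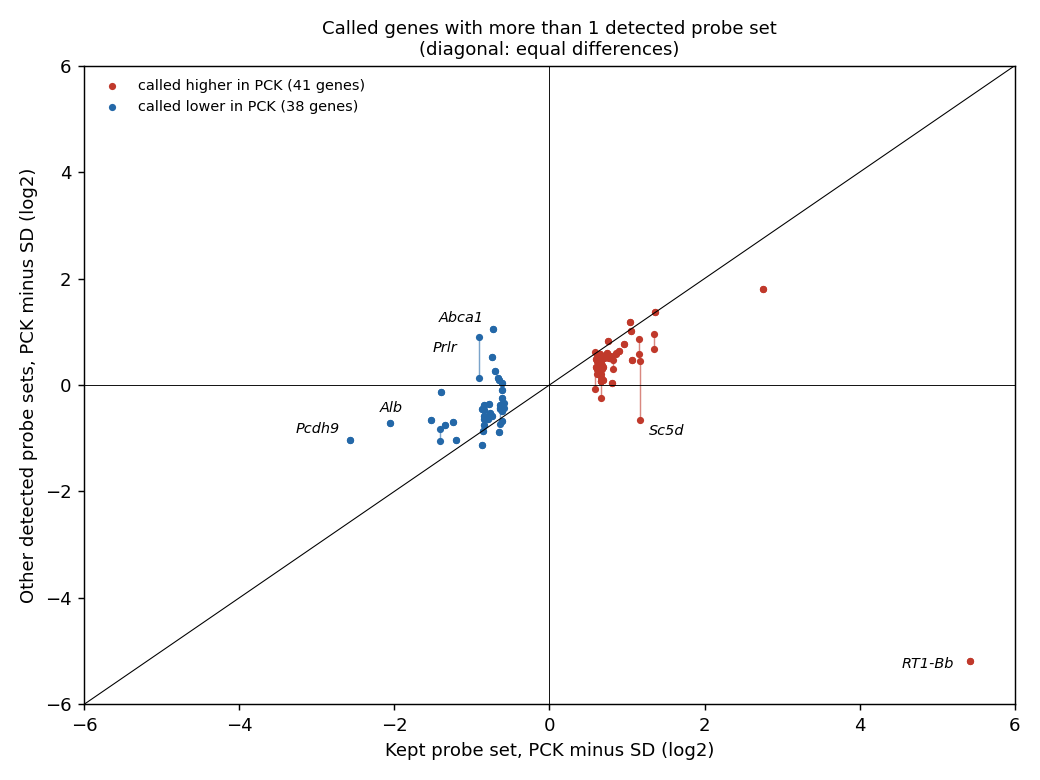
For called genes with more than 1 detected probe set (41 higher in red, 38 lower in blue), the difference of the kept probe set is on the horizontal axis and the lowest and highest differences of the others, joined by a line, on the vertical axis (PCK minus SD, log2). Most points lie on the same side of 0 on both axes and nearer 0 on the vertical axis, while RT1-Bb at the lower right and Abca1 and Prlr at the upper left do not.

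PCK and SD were last placed among the 4 pools. A called gene was asked whether its PCK or its SD mean lay outside the range of the FHH and FHH.Pkhd1 means widened by 1.5-fold on each side. In 109 genes PCK alone lay outside, in 88 SD alone, in 31 both and in 111 neither. These counts depend on the width: PCK alone lay outside in 39 genes with no widening and in 53 with 2-fold widening, and SD alone in 42 and 40. The genes named here are sorted by the 1.5-fold width. The injury genes Havcr1, Clu and Gpnmb, the protease inhibitors Serpina3n, Serping1 and Slpi, and F2, Fga and Ace were among the 59 higher genes where PCK alone lay outside. Havcr1 was at 9.25 in PCK, against 6.10 in SD, 7.0 in FHH and 6.07 in FHH.Pkhd1. Clu was at 11.62 in PCK, against 10.07 in SD, 9.37 in FHH and 9.59 in FHH.Pkhd1. In contrast, Akr1b8, Apoe, Lpl, Col17a1, Ccl20, F5, Fgb and Pdk4 were among the 44 higher genes where SD alone lay outside. Lpl was at 9.08 in SD, against 10.35 in PCK, 10.56 in FHH and 10.80 in FHH.Pkhd1. Among lower genes, Ptgs2, Hpgd, Cd74, RT1-Da, Calb1, Sqle, Lss and Cyp26b1 had PCK alone outside, and Gc, Alox15, Idi1, Inmt and the red cell genes Hbb, Ahsp and Alas2 had SD alone outside. Gc was at 9.43 in SD, against 6.61 in PCK, 6.19 in FHH and 6.13 in FHH.Pkhd1. Both pools lay outside for Fam111a, Cps1, Slc7a12, Ephx2, Alb, Slco1a1, Klk1c4, Akr1c1, Akr1c13 and Bhlhe40. For these genes the range of the FHH pools lay between PCK and SD or to one side of both. In some of them FHH and FHH.Pkhd1 themselves lay far apart. Slco1a1 was at 7.97 in FHH and 3.78 in FHH.Pkhd1, and Akr1c13 at 9.16 in FHH and 6.23 in FHH.Pkhd1. Fam111a was at 6.88 in SD, against 11.88 in PCK, 10.64 in FHH and 10.82 in FHH.Pkhd1. FHH and FHH.Pkhd1 differ from PCK and SD in strain background, and FHH.Pkhd1 shares the Pkhd1 mutation with PCK. The counts therefore describe where a pool lies and no more.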

How the data were processed

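Kidney RNA of 4 rat strains, 1 pool of 6 animals each and 3 arrays per pool, was measured on Affymetrix rat expression arrays. The deposited log2 values were made by the authors; the tools named are RMA and Partek 6.2 (from the submitters' processing notes). It is not given there whether the 12 arrays were normalized as 1 set, and the values were used as deposited. Of 31099 probe sets, 57 controls were left out, 20826 had 1 gene symbol, 436 several and 9780 none. Symbols come from the platform annotation of the arrays, and 20812 of the single-symbol probe sets matched a current gene record (GRCr8), used for names alone.

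A gene with several probe sets was represented by the one with the highest mean over the 12 arrays, which gave 14217 genes. Those with a strain mean of at least 5.75, the 40th percentile of the deposited values, were tested. The limma 3.58.1 fit (R 4.3.3) took in all 12 arrays, with 1 mean per strain and eBayes (prior degrees of freedom 4.01, residual 8). P-values were adjusted by the Benjamini-Hochberg method across the tested genes, and a gene was called at an adjusted p under 0.05 and 1.5-fold. Controls were compared by two-sided exact permutation tests.

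Named genes were the 20 largest differences in each direction among called genes with no overlap of arrays, up to 8 called members of each list (or the 2 largest where none was called), the most abundant cell type markers, and genes whose probe sets passed 1.5-fold in opposite directions. Some members that were not called, and genes outside the lists, were picked with their values in view. The comparison, lists and rules were chosen with earlier results of these data known. No set test was run, and lists are described by counts and medians. A list's summed signal is the log2 of the sum of its tested members' signals.

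In a test on simulated data with 10891 genes, for PCK against SD, 2% of genes changed 1.25-fold were called, 100% of those changed 1.75-fold, 2-fold or 4-fold, and 0 unchanged genes. The simulated noise was the spread between arrays of a pool alone. These rates therefore do not cover the spread between animals. The 19 alternatives covered the filter, the choice of probe set, the fold limit, the fit and its arrays, the normalization, a block for the replicate number and each array left out. Promoters are the 250 bases before RefSeq start sites. Figures were drawn with matplotlib 3.10.9.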

Additional observations from a re-analysis of the deposited data

Results flagged for a closer look

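Probe sets with no gene symbol, or with several, were not used in the report. Of 4681 such probe sets that reached the detection level, 225 passed the same limits between PCK and SD, 118 higher and 107 lower in PCK. They carry a signal that the annotation used does not tie to 1 gene.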

How the results depend on the processing

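With a 2-fold limit 67 genes were called higher and 44 lower, and list members fell to 23 and 18. With the adjusted p alone the counts were 1886 and 2047, with 205 and 187 list members. Leaving out 1 array gave 183 to 195 higher and 147 to 169 lower genes, and 48 to 51 and 39 to 44 list members. The remaining settings gave 147 to 208 higher and 122 to 192 lower genes. The replicate number as a block left 184 and 155 calls. Arrays of the same number did not deviate together, with correlations of -0.20, -0.14 and -0.02 between PCK and SD. With the mean of the detected probe sets Abca1 reversed to 0.16 and Prlr to 0.042, and with the probe set of largest variance Akr1b10 reversed to 0.53 and Prlr to 0.90. With a detection level at the 60th percentile, 38 called genes in place of 68 had all other detected probe sets of the same sign. A higher level also leaves fewer probe sets to compare, so these counts do not give the share that had the same sign. PCK alone lay outside the FHH range for 39 genes with no widening and 53 with 2-fold widening, and SD alone for 42 and 40. Hybridisation spike-ins differed by 0.09 and by -0.083 to 0.257 when 1 array was left out. Of 46 list medians 14 changed sign under at least 1 alternative, and 2 of the 19 medians of at least 0.1 in size did, those of the granulocyte and mast cell list and the renin-angiotensin and kallikrein-kinin list. With the filter on the PCK and SD means alone, S100a9 leaves the granulocyte and mast cell list, and its median is then the value of Tpsb2, -0.05. The cause was not tested in the other cases. With 1 pool per strain, no setting measures the spread between animals.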
